A study of Mus musculus with 17 samples.

Results

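The small leucine-rich proteoglycans (SLRPs) described here are the 8 genes Dcn, Lum, Bgn, Fmod, Ogn, Aspn, Prelp and Omd. They were found by their symbols in a table of read counts with 45777 genes, and all 8 had enough counts to be tested, as had 22052 genes in all. The members were chosen by gene symbol and not selected on a stated measured value, but the list was drawn up with earlier results of these data known, so the counts and tests of members below describe these libraries and are not independent evidence.

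SLRPs are secreted proteins of the extracellular matrix whose core is a curved stack of leucine-rich repeats, and several of them carry chondroitin, dermatan or keratan sulfate chains. They bind the surface of collagen fibrils and are known for setting the width and spacing of fibrils. Some also bind growth factors of the TGF-β family or act on receptors such as Tlr2 and Tlr4. In lung they are made mainly by fibroblasts, smooth muscle and other mesenchymal cells. Decorin (Dcn), biglycan (Bgn) and asporin (Aspn) make up class I. Lumican (Lum), fibromodulin (Fmod), Prelp and osteomodulin (Omd) belong to class II, and osteoglycin (Ogn, also called mimecan) to class III.

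RNA was sequenced from the lungs of male wild-type C57BL/6 mice, which were 6 weeks old on arrival. The left lung received a single focal dose of 65 Gy or 75 Gy from an image-guided small-animal irradiator, and RNA was taken from the lesions after 2 or 6 weeks. Non-irradiated mice of both times served as controls. No transgene, gene deletion or further agent is named for any group. The groups had 3 libraries each, except 65 Gy at 6 weeks with 2. The libraries are numbered 3126 to 3128 (control), 3129 to 3131 (65 Gy) and 3132 to 3134 (75 Gy) at 2 weeks. At 6 weeks they are 3135 to 3137 (control), 3138 and 3140 (65 Gy), and 3141 to 3143 (75 Gy). Values of several libraries are given in this order throughout.

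The counts on genes lay between 46764569 and 66797879 per library. Levels are in CPM (the counts of a gene relative to those of its library), scaled with TMM factors, which lay between 0.964 and 1.034. The members had from 42 counts, for Omd, to 87506 counts, for Bgn, in a library. The 10 markers of alveolar and airway epithelium summed to 21670 CPM or more in every library, so the tissue label held for lung. In a bulk sample, fewer cells of a type and less RNA per cell cannot be told apart. Library 3134 (75 Gy, 2 weeks) had a leukocyte marker sum of 1570 CPM, against 941.5 CPM at most in any library of another group, and the 75 Gy values of the members at 2 weeks are also given without it, as are the list genes named below whose call it changed.

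Most members lie in clusters of SLRP genes. On mouse chromosome 10 (GRCm38), Dcn is followed by Lum, Kera and Epyc within 202.4 kb. Prelp and Fmod share a stretch of 151.1 kb on chromosome 1 with Optc. On chromosome 13, Ecm2, Aspn, Omd and Ogn stand side by side on the plus strand within 119.7 kb, with gaps of 11.7, 14.9 and 15.4 kb between them, and Bgn is alone on chromosome X. The whole of Aspn, Omd and Ogn lies within Cenpp, a centromere protein gene on the opposite strand, which had between 0 and 1.61 CPM in a library. Prelp overlaps the antisense gene Gm15851. Whether the counting used strand is not stated, so that reads of opposite genes cannot be told apart here.

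RefSeq promoter sequences (GRCm38.p6) were at hand for 6 of the 8 members: Prelp, Fmod, Aspn, Omd, Ogn and Bgn. The 250 bases before the start were searched on both strands for 6 motifs. The TATA box was searched as TATAAA, and the GC box as GGGCGG. The short SMAD-binding element, here called the CAGA box, was searched as CAGAC. Its palindromic form, the SMAD box, was searched as GTCTAGAC. The AP-1 site was searched as TGANTCA, and the E-box as CANNTG. Stretches are shown for Fmod, whose level changed most, for Bgn, the member with the highest level per length, and for the neighbours Aspn and Ogn, which were high and low in the same libraries. Capitals mark the CAGA box in Fmod, the GC box in Bgn and the TATA box in Aspn and Ogn, each on either strand.
Fmod, chr1:134037054-134037114, plus strand: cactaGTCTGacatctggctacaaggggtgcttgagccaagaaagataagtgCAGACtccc
Bgn, chrX:73483541-73483600, plus strand: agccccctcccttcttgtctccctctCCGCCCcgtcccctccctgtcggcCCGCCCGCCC
Aspn, chr13:49544223-49544283, plus strand: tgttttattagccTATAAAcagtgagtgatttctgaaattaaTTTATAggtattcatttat
Ogn, chr13:49607775-49607835, plus strand: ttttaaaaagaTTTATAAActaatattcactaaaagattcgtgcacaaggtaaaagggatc

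In Fmod the CAGA boxes began 195 and 148 bases before the start. A CAGA box was held by 42.2% of the 32851 promoters in the RefSeq table. The Bgn stretch ends at the base before the start and holds 3 GC boxes, the last 2 of which share letters; 32.7% of promoters had a GC box. The TATA box letters began 207 and 178 bases before the start of Aspn and, overlapping each other, 229 and 227 bases before that of Ogn, and 12.4% of promoters had such a match. Prelp had 1 CAGA box, at 161 bases. E-boxes, found in 66.2% of promoters, were in Fmod, Aspn, Ogn and Bgn. None of these 6 promoters held an AP-1 site (6.75% of promoters) or a SMAD box (0.167%), and Omd held none of the 6 motifs. The GC content of the 250 bases was 64.4% in Bgn and 30% in Aspn, against a median of 52.4% over all promoters. These matches are letters in a window, and no binding was measured.

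To compare genes with each other, CPM were divided by the length of all exons of a gene in kb. This length joins the exons of all annotated transcripts. It was 2249 bases in Omd, 5838 in Dcn and 6099 in Bgn, with coding parts of 1269, 1062 and 1107 bases. A gene whose main transcript is shorter than this length gets a lower value, so that levels, order and shares depend on this choice. On this scale the members fell into a high and a low set. Bgn had a median level of 164.5 CPM per kb over the 17 libraries, Ogn of 160 and Prelp of 102.5. Dcn followed at 28.5 CPM per kb, Aspn at 11.7, Lum at 5.49, Fmod at 3.45 and Omd at 1.57. The lowest value of Prelp, 61.7 CPM per kb, was above the highest of Dcn, 51.8, and this was the only gap between neighbours in the order. All other neighbours overlapped in their ranges: Bgn took rank 1 or 2 in every library, Ogn rank 1 to 3, Prelp rank 2 or 3, Dcn and Aspn rank 4 or 5, Lum rank 6 or 7, Fmod rank 6 to 8 and Omd rank 7 or 8.

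Because 3 genes held most of the length-scaled level, the makeup of the family was mostly theirs. Bgn made up 21.9% to 34% of it in the controls of 2 weeks and 27.4% to 29.4% in those of 6 weeks. The share of Bgn was 39.6% to 44.5% in 65 Gy lungs and 31.6% to 52.6% in 75 Gy lungs of 2 weeks, and 30.7% to 36.6% in 75 Gy lungs of 6 weeks. Prelp held 21.4% to 29.3% in the controls and 14.6% to 20.7% in 75 Gy lungs of 2 weeks, and 26.35% to 28.1% and 17.2% to 20.95% in those of 6 weeks. The share of Dcn was 4.78% to 6.54% in the controls of 6 weeks and 8.46% to 9.79% in the 75 Gy lungs of that time, without overlap. The shares sum to a fixed whole, so that a gain of 1 gene lowers the others.

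**Figure D1:**
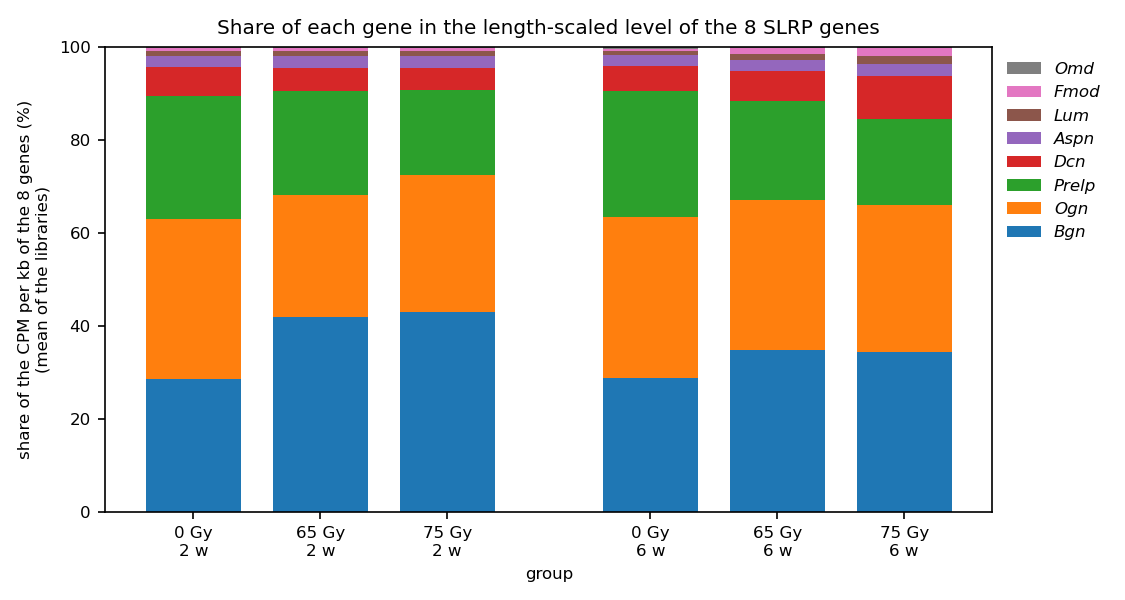
Mean share (%) of each gene in the summed CPM per kb of exon of the 8 SLRP genes, by dose and time, with 1 bar per group of 3 libraries (2 for 65 Gy at 6 weeks). Bgn, Ogn and Prelp fill most of every bar, and the share of Dcn was 9.04% in 75 Gy lungs of 6 weeks against 5.57% in their controls.

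Each irradiated group was compared with the controls of its time by edgeR's quasi-likelihood test over all 22052 genes. A gene is called differentially expressed (a DEG) here if its adjusted p (Benjamini-Hochberg) does not exceed 0.05 and its log2 fold change is 1 or more in either direction. At 6 weeks after 75 Gy, 2 of the 8 members were DEGs, Lum and Fmod, both higher, where 10.4% of all genes were DEGs and 7.28% were higher DEGs. In the other 3 comparisons none of the 8 was a DEG, against 7.74% of all genes at 75 Gy and 2 weeks, 4.35% at 65 Gy and 2 weeks and 5.28% at 65 Gy and 6 weeks. Of those 3 counts, DESeq2 gave 0, 0 and 1, the last being Fmod, and the members with an unadjusted p under 0.05 numbered 2, 5 and 3, where 35%, 25.4% and 29.4% of all genes had one. The doses share their controls, so that their comparisons are not independent of each other.

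With the adjusted p alone, 3 members were higher at 75 Gy and 6 weeks (Dcn, Lum and Fmod), as were 18% of all genes. At 2 weeks, Dcn and Prelp were lower by this limit at both doses. The share of all genes below their controls by this limit was 10.5% at 75 Gy and 4.29% at 65 Gy. The median log2 fold change of the 8 members was -0.33 at 75 Gy and -0.55 at 65 Gy at 2 weeks, and 0.38 and 0.087 at 6 weeks, while the median over all genes lay between -0.0085 and 0.0399.

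**Figure D2:**
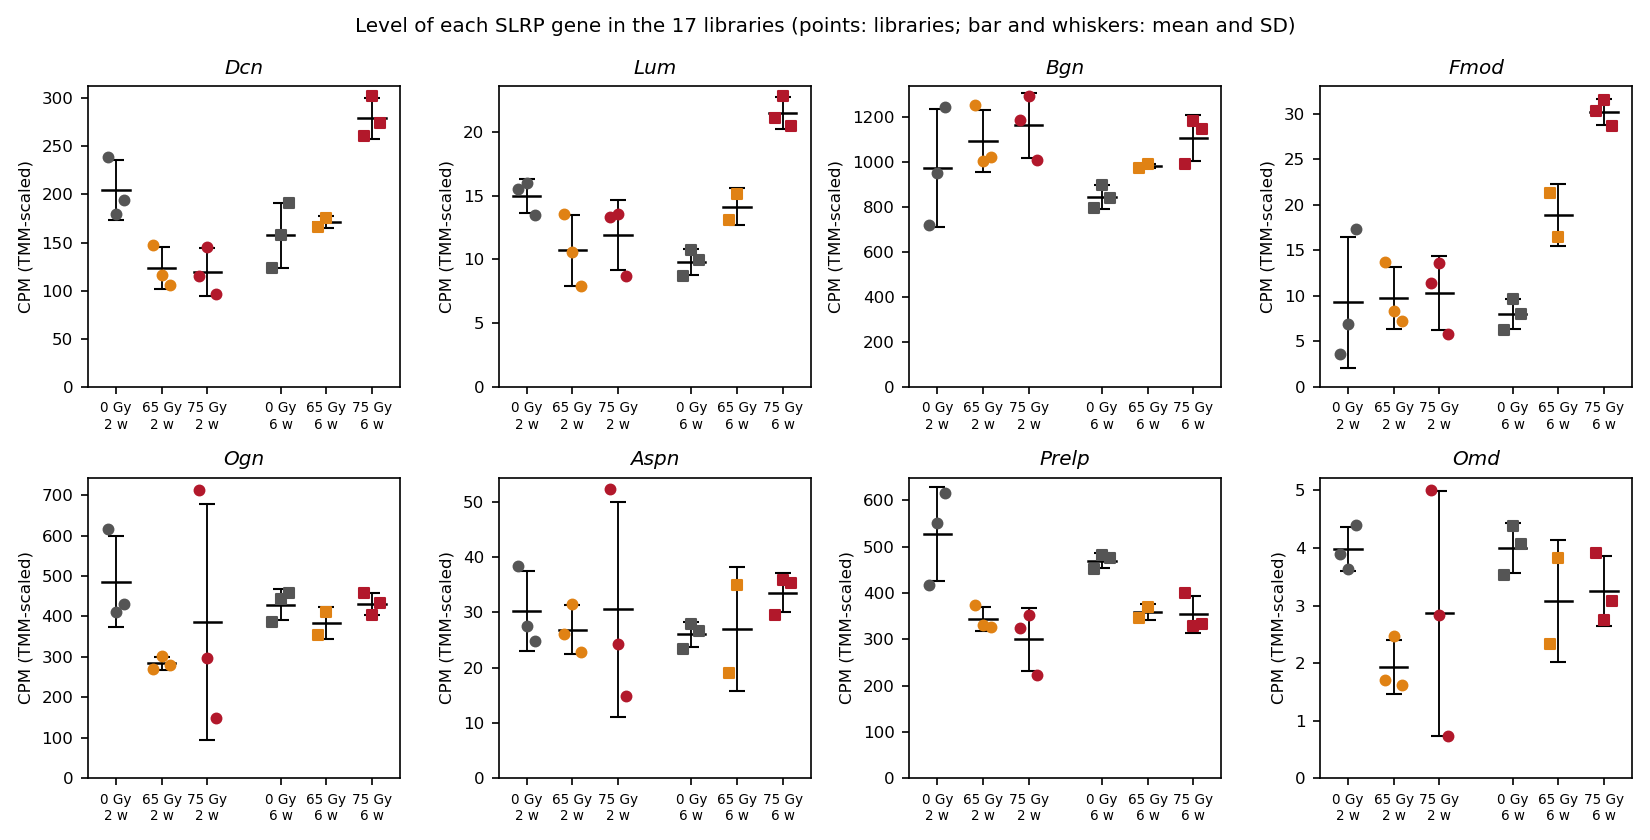
Level in CPM of each SLRP gene in each of the 17 libraries, by dose and time (circles 2 weeks, squares 6 weeks), with the mean and SD of the group; each panel has its own axis from 0. Dcn, Lum and Fmod stood highest in the 3 libraries of 75 Gy at 6 weeks, and Ogn, Aspn and Omd were spread most in those of 75 Gy at 2 weeks.

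Decorin carries a single dermatan or chondroitin sulfate chain and binds type I collagen and TGF-β. In the controls of 2 weeks Dcn was at 239, 180.1 and 194.5 CPM. It was at 148, 116 and 106 CPM after 65 Gy and at 116, 146 and 96.5 CPM after 75 Gy, so that all 6 irradiated libraries lay below all 3 controls. Of all genes, 13.5% at 65 Gy and 14.8% at 75 Gy were below their controls without overlap. The log2 fold change was -0.73 (SE 0.1755, adjusted p = 0.0154) at 65 Gy and -0.78 (SE 0.176, adjusted p = 0.00539) at 75 Gy with edgeR, past the adjusted p limit and short of the fold-change limit. The adjusted p was 0.0567 and 0.0725 at 65 Gy without library 3130 or 3131, and to 0.0564 at 75 Gy when only the libraries of these 2 groups were fitted.

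At 6 weeks the 75 Gy libraries were the high ones. The controls had 124, 158 and 191 CPM of Dcn, the 65 Gy libraries 167 and 176 CPM, and the 75 Gy libraries 261, 302 and 274 CPM. The 75 Gy libraries lay above every other library of the series, the next being control 3126 of 2 weeks at 239 CPM, and the 65 Gy libraries lay among the controls. At 75 Gy the log2 change was 0.83 (SE 0.176, adjusted p = 0.00235), a 1.77-fold level, and 0.12 (SE 0.195, adjusted p = 0.731) at 65 Gy in edgeR's test.

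Biglycan is the close relative of decorin with a pair of sulfated chains, and its free form is known as a ligand of Tlr2 and Tlr4. Bgn was at 720.1, 948 and 1244 CPM in the controls of 2 weeks, at 1251, 1003 and 1022 CPM after 65 Gy and at 1184, 1293 and 1006 CPM after 75 Gy. These groups overlapped. At 6 weeks it was at 792, 897 and 836 CPM in controls, 974 and 988 CPM at 65 Gy and 989.9, 1182 and 1143 CPM at 75 Gy, and each irradiated library was above each control, as for 28.2% of all genes at 65 Gy and 29.4% at 75 Gy. The log2 fold change of 0.39 at 75 Gy (SE 0.162, edgeR adjusted p = 0.07135) did not pass, and at 65 Gy it was 0.22 (adjusted p = 0.4525).

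Asporin resembles these proteins but has a stretch of aspartate residues and no sulfated chain. Aspn was at 38.3, 27.6 and 24.75 CPM in the controls of 2 weeks, 26.1, 31.6 and 22.9 CPM at 65 Gy and 52.3, 24.3 and 14.9 CPM at 75 Gy. In the last group 1 library was above and 1 below all other libraries of the series. At 6 weeks the controls had 23.45, 27.9 and 26.6 CPM, the 65 Gy libraries 19.1 and 34.9 CPM and the 75 Gy libraries 29.5, 35.8 and 35.3 CPM. At 75 Gy and 6 weeks the log2 change of Aspn was 0.37 (SE 0.336, adjusted p = 0.419) with edgeR. The groups did not overlap, as for 29.4% of all genes that were higher there.

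Lumican is a keratan sulfate proteoglycan of collagen-rich tissue. Lum was at 15.5, 15.95 and 13.4 CPM in controls of 2 weeks, 13.6, 10.6 and 7.94 CPM at 65 Gy and 13.3, 13.6 and 8.705 CPM at 75 Gy. At that time its log2 change was -0.48 (SE 0.185, adjusted p = 0.11) at 65 Gy and -0.33 (SE 0.184, adjusted p = 0.215) at 75 Gy, with edgeR, and neither passed. Without library 3134 the value at 75 Gy was -0.15, and without 3131 that at 65 Gy was -0.31. At 6 weeks the controls had 8.66, 10.7 and 9.915 CPM, the 65 Gy libraries 13.1 and 15.1 CPM and the 75 Gy libraries 21.1, 22.8 and 20.45 CPM.

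The 75 Gy libraries of 6 weeks had the highest levels of Lum in the series, the next being 15.95 CPM in a control of 2 weeks. Lum rose 2.2-fold at 75 Gy, which is 1.14 (SE 0.186, adjusted p = 0.000381) on the log2 scale with edgeR. At 65 Gy it was 0.53 (SE 0.204, adjusted p = 0.0943), with both libraries above the 3 controls, as for 28.2% of all genes. The controls of 6 weeks had lower Lum than those of 2 weeks without overlap, as had 11.2% of all genes, at a difference of -0.62 (SE 0.185, adjusted p = 0.121) on the log2 scale. None of the 8 members was a DEG between the controls, against 127 genes or 0.576% of all. DESeq2 gave 0 members too, and 2, Dcn and Lum, had an unadjusted p under 0.05, as had 15.5% of all genes.

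Fibromodulin binds collagen fibrils at the same place as lumican and is known to bring lysyl oxidase to them. Fmod was at 3.65, 6.85 and 17.4 CPM in the controls of 2 weeks, a spread that took in all 6 irradiated libraries of that time, at 13.7, 8.36 and 7.21 CPM for 65 Gy and 11.4, 13.6 and 5.79 CPM for 75 Gy. At 6 weeks the controls had 6.26, 9.61 and 8.05 CPM, the 65 Gy libraries 21.3 and 16.5 CPM and the 75 Gy libraries 30.3, 31.5 and 28.7 CPM. The 3 groups of 6 weeks did not overlap, with 65 Gy between the controls and 75 Gy. Among all genes, 28.2% at 65 Gy and 29.4% at 75 Gy were above their controls without overlap. Another 15.6% share was that of genes higher without overlap at 75 Gy than at 65 Gy. The difference of Fmod between the doses did not pass (edgeR adjusted p = 0.751).

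Fmod had the largest log2 fold change of the members in any comparison with controls, 1.92 (SE 0.438, adjusted p = 0.00369) at 75 Gy and 6 weeks in edgeR's test, 3.78 times the control level. At 65 Gy it was 1.24 (SE 0.4695, adjusted p = 0.0899), which did not pass. The 2-week change was 0.15 at 75 Gy with a 95% interval of -0.77 to 1.06, so that a log2 rise of 1 lay inside the interval with this spread of controls.

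**Figure D3:**
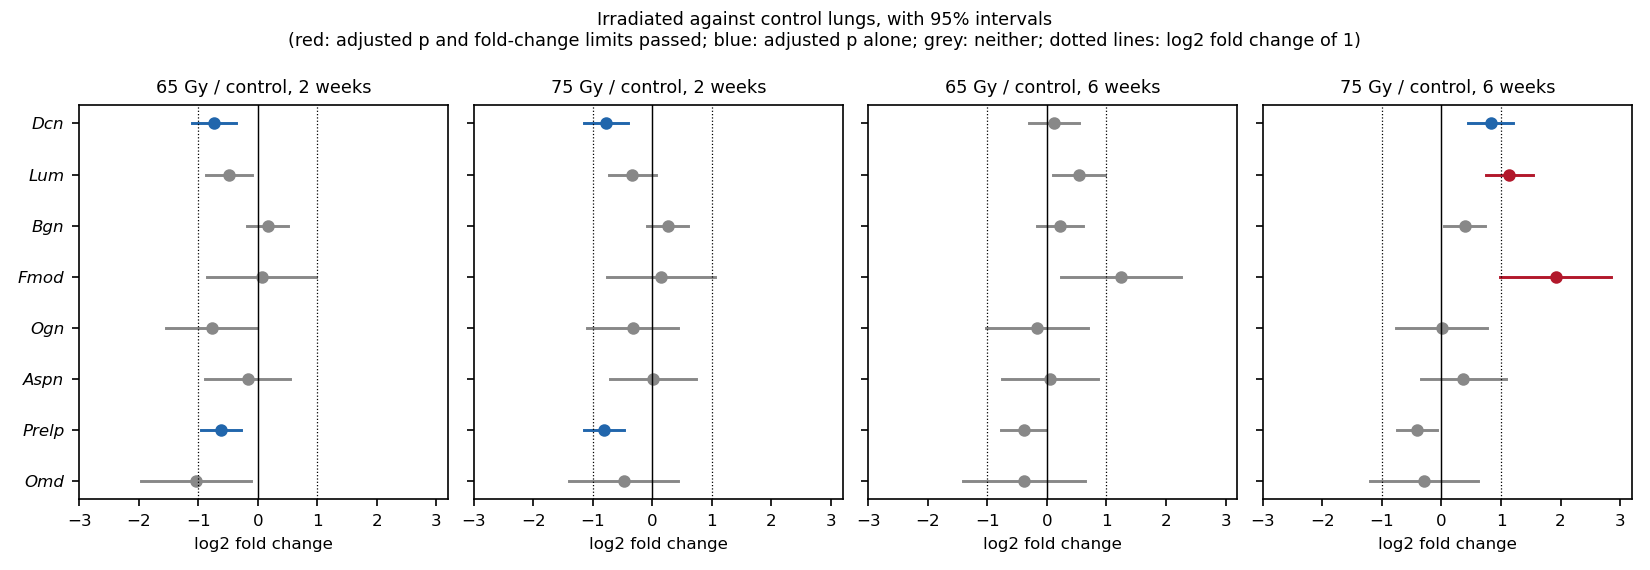
Log2 fold change of the 8 SLRP genes in irradiated against control lungs of the same time, with 95% intervals from edgeR's fit; dotted lines mark a log2 fold change of 1 either way. Lum (1.14) and Fmod (1.92) at 75 Gy and 6 weeks are the 2 values in red, and Dcn and Prelp are below 0 in blue at both doses at 2 weeks.

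Prelp has a basic N-terminal region that binds heparan sulfate and is known to link basement membranes to collagen. In the controls of 2 weeks Prelp was at 417, 551 and 616 CPM. It was at 373, 331.5 and 326 CPM after 65 Gy and 324, 353 and 223 CPM after 75 Gy, and no irradiated library reached a control. The same held for 13.5% of all genes at 65 Gy and 14.8% at 75 Gy. The log2 change of Prelp was -0.62 (SE 0.159, adjusted p = 0.02175) at 65 Gy and -0.81 (SE 0.1595, adjusted p = 0.00226) at 75 Gy with edgeR. Both were past the adjusted p limit and short of the fold-change limit. At 65 Gy the adjusted p lay between 0.0681 and 0.0914 without library 3127, 3128, 3130 or 3131, and at 75 Gy it was 0.0717 when only these 2 groups were fitted.

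At 6 weeks Prelp was below all its controls in every irradiated library. It was at 451, 481 and 476 CPM in controls, 346 and 370.4 CPM at 65 Gy and 399.9, 329.5 and 333 CPM at 75 Gy. Prelp thus had log2 changes of -0.39 (SE 0.179, adjusted p = 0.16) at 65 Gy and -0.41 (SE 0.159, adjusted p = 0.057) at 75 Gy, so that neither passed in edgeR's test. Of all genes, 28.1% at 65 Gy and 27.7% at 75 Gy were lower without overlap.

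Osteomodulin, first known from bone matrix, had the lowest levels. Omd was at 3.9, 3.64 and 4.405 CPM in controls of 2 weeks, 1.71, 2.47 and 1.62 CPM at 65 Gy and 5.01, 2.84 and 0.739 CPM at 75 Gy. The 65 Gy libraries were below all controls, as for 13.5% of all genes. The log2 change was -1.04 (SE 0.436, adjusted p = 0.146), past the fold-change limit but not past the adjusted p limit of edgeR's test. At 6 weeks the levels were 3.535, 4.39 and 4.07 CPM in controls, 2.325 and 3.82 CPM at 65 Gy and 3.92, 2.74 and 3.09 CPM at 75 Gy, and the groups overlapped.

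Osteoglycin, the class III member, is a keratan sulfate proteoglycan found in many connective tissues. Ogn was at 616, 411 and 432 CPM in the controls of 2 weeks, 270.5, 301 and 279.8 CPM at 65 Gy and 712.5, 298 and 149.6 CPM at 75 Gy. The 65 Gy libraries lay below the controls, as for 13.5% of all genes, with a log2 change of -0.78 (SE 0.3595, adjusted p = 0.19) in edgeR's test. The 75 Gy libraries lay on both sides of all the others of 2 weeks. At 6 weeks it was at 387, 442 and 459 CPM in controls, 355 and 412 CPM at 65 Gy and 458, 403 and 433 CPM at 75 Gy. At 75 Gy the log2 change of Ogn was 0.01 with a 95% interval of -0.76 to 0.77.

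In the 75 Gy group of 2 weeks, the chromosome 13 neighbours varied together from library to library. In library 3132 the CPM of Ogn was 3.19 times the mean of the other 2 libraries of its group, that of Omd 2.8 times and that of Aspn 2.66 times. Ecm2, the remaining gene of the cluster, was at 1.36 times, and the other 5 members were between 0.955 (Dcn) and 1.2 (Lum) times. In library 3134 all 8 members were below the mean of the others. The same 3 genes were lowest, at 0.188 (Omd), 0.296 (Ogn) and 0.39 (Aspn) times, followed by Fmod at 0.462, Ecm2 at 0.553, Lum at 0.647, Prelp at 0.659, Dcn at 0.739 and Bgn at 0.812 times. Genes away from this cluster also stood high in 3132 and low in 3134, among them Inmt, a marker of alveolar fibroblasts, at 2.75 and 0.221 times. Leukocyte genes went the other way, Csf1r being at 0.473 times in 3132 and 2.32 times in 3134. The part of cell composition in these values was not tested. Without library 3132, Ogn was a DEG at 75 Gy and 2 weeks, with a log2 fold change of -1.13 and an edgeR adjusted p of 0.00344. Without library 3134, the log2 fold change against controls of 2 weeks went from -0.33 to 0.06 in Ogn, from -0.48 to -0.02 in Omd, from 0.01 to 0.34 in Aspn and from 0.15 to 0.43 in Fmod. That of Bgn went from 0.26 to 0.35, and none of these 5 passed with or without it. Dcn at -0.65 and Prelp at -0.64 stayed past the adjusted p limit, at 0.028 and 0.00653 with edgeR.

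**Figure D4:**
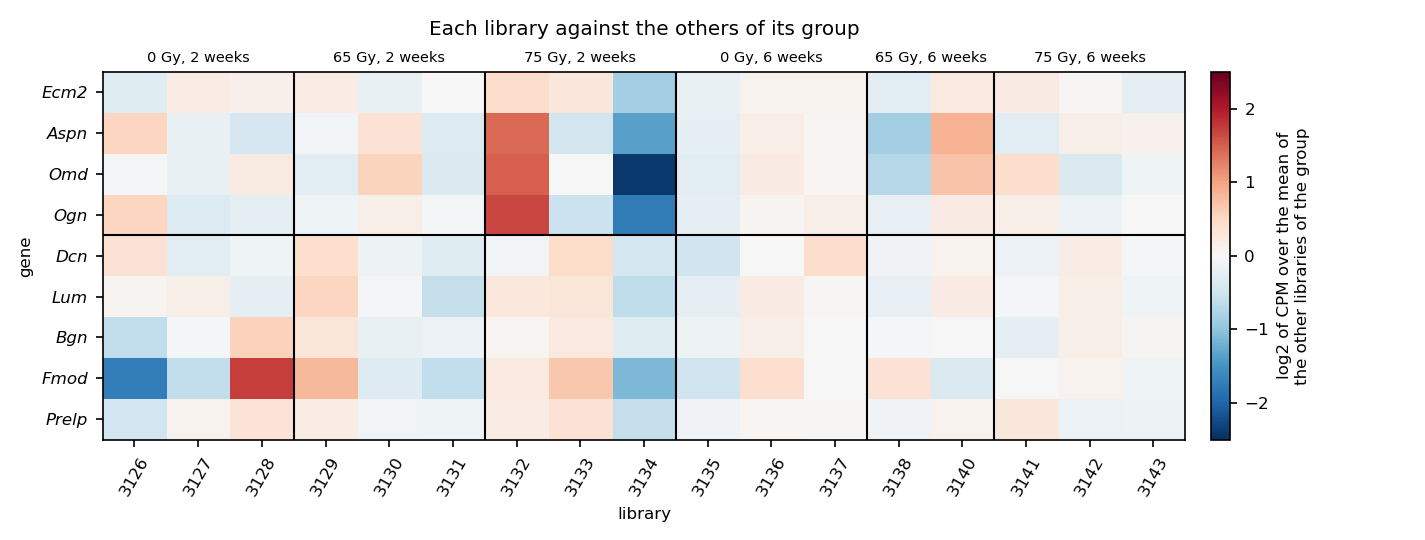
Log2 ratio of the CPM of a gene in a library to the mean of the other libraries of its group, for the 4 chromosome 13 neighbours (above the line) and the other 5 members (below it); red is above and blue below the others. Aspn, Omd and Ogn are red in library 3132 (2.66 to 3.19 times) and blue in library 3134 (0.188 to 0.39 times), both of 75 Gy at 2 weeks.

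Whether the effect of irradiation differed between the times was tested as a difference of log2 fold changes within the same edgeR fit. The effect of 75 Gy on Dcn was higher at 6 weeks than at 2 weeks by 1.60 (SE 0.248, adjusted p = 0.0125), and that on Lum by 1.47 (SE 0.261, adjusted p = 0.0272). These 2 of the 8 members passed both limits, as did 56 genes or 0.254% of all tested. For Dcn the difference joins a level below the controls at 2 weeks with a level above them at 6 weeks, as given above. The controls of 6 weeks had lower levels than those of 2 weeks for both genes, by a log2 difference of -0.38 in Dcn and -0.62 in Lum (unadjusted p with edgeR 0.04745 and 0.00457), and this enters both differences.

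All 6 markers of heart muscle and all 6 of fat also had differences above 0 between the times. All 6 cardiac markers and 5 of the 6 adipocyte markers had an unadjusted p under 0.05 for it, as had 16.1% of all genes, with medians of 2.37 and 3.48 over each list. None of the 12 passed with edgeR, and DESeq2 called 2 cardiac markers higher. Of 8 myofibroblast and smooth muscle markers 8 were above 0 (median 0.43), and of 7 adventitial fibroblast markers 6 (0.45). For alveolar fibroblasts it was 4 of 8 (0.03), for pericytes 1 of 6 (-0.18) and for mesothelium 6 of 6 (0.34). In this order 3, 2, 0, 1 and 0 had an unadjusted p under 0.05, and none passed with edgeR or DESeq2. The cardiac sum at 2 weeks was 230.4 to 295 CPM in controls and 50.6 to 200.1 CPM at 75 Gy, and at 6 weeks 103.5 to 498 and 384 to 578 CPM. The adipocyte sum was 69.8 to 79.2 and 25.2 to 41.1 CPM at 2 weeks, and 27.55 to 87.9 and 87.9 to 105 CPM at 6 weeks. The part of all these tissues and cell types in the differences of Dcn and Lum was not tested.

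Fmod had the largest difference, 1.77 (SE 0.608, adjusted p = 0.198), but its interval of 0.48 to 3.07 was wide and it did not pass. Without control library 3128 it was 0.95, below the values of Dcn and Lum. The other 5 differences at 75 Gy lay between 0.13 (Bgn) and 0.41 (Prelp). At 65 Gy none of the 8 passed, where 0.0136% of all genes passed with edgeR, and none passed with DESeq2, which called 78 genes. The 65 Gy differences of Dcn and Lum had unadjusted p-values under 0.05, like 8.65% of all genes, and were 0.85 (SE 0.261, adjusted p = 0.435) and 1.02 (SE 0.275, adjusted p = 0.362) with edgeR.

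Leaving out 1 library at a time, Dcn kept its call in every fit, with values from 1.46 to 1.77 and adjusted p-values up to 0.0392. Lum lost its call without 3126, 3127, 3135, 3136, 3142 or 3143, where its adjusted p lay between 0.0567 and 0.0882 and its value between 1.39 and 1.54.

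**Figure D5:**
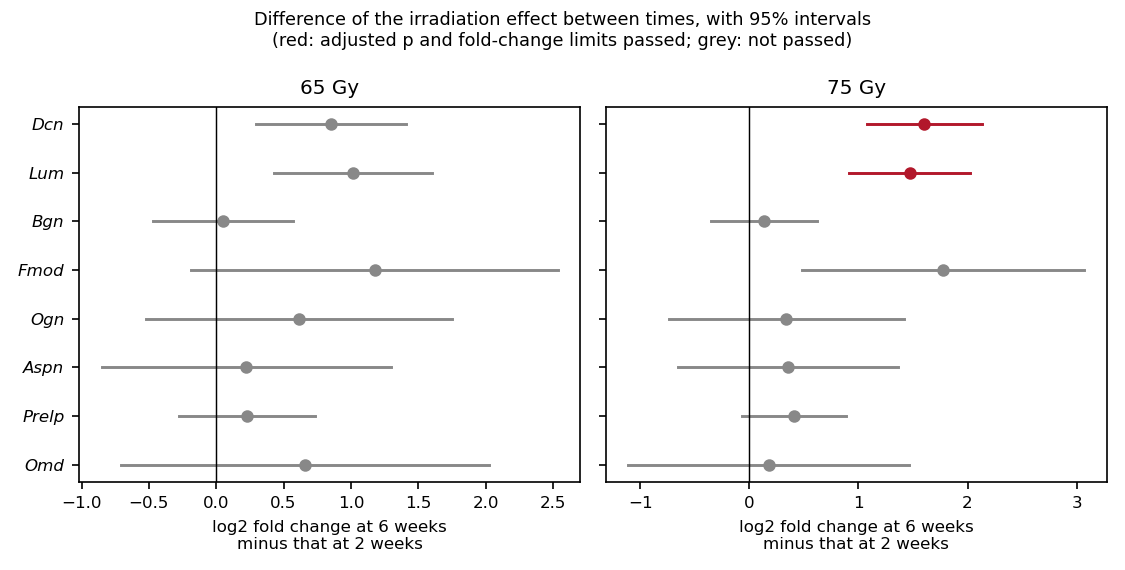
Log2 fold change of irradiated against control lungs at 6 weeks minus that at 2 weeks, for the 8 SLRP genes at 65 Gy and 75 Gy, with 95% intervals from edgeR's fit. The doses share their controls. The values of Dcn (1.60) and Lum (1.47) at 75 Gy, in red, passed both limits.

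The doses were also compared directly. Between 75 Gy and 65 Gy, 0 of the 8 members and 0% of all genes were DEGs at either time with edgeR, and DESeq2 gave 0 members as well. No member had an unadjusted p under 0.05 at 2 weeks, and 2 had one at 6 weeks, Dcn and Lum, against 7.12% and 6.49% of all genes. At 6 weeks Dcn was 1.63-fold higher at 75 Gy, with a log2 difference of 0.70 and a 95% interval of 0.28 to 1.13. Lum was higher by 0.60 (0.16 to 1.05) and Fmod by 0.68 (-0.34 to 1.70) on the log2 scale. The edgeR adjusted p was 0.735 for Dcn and Lum alike and 0.751 for Fmod. In all 3 genes, and in Bgn, the 75 Gy libraries lay above both 65 Gy libraries, as for 15.6% of all genes. For Prelp the difference was -0.02 with an interval of -0.40 to 0.36.

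The pattern over the 17 libraries was compared between genes as the mean absolute difference of centred log2 CPM, over the 14482 genes whose mean log2 CPM was 1 or higher. Dcn and Lum were each other's nearest member, at 0.202, which gave Lum rank 5 among all genes for Dcn and Dcn rank 4 for Lum. The genes most like Dcn were Ntf3 (0.195), a neurotrophin, and Fxyd6 (0.196), and those most like Lum were Fxyd6 (0.177) and Sema3d (0.185), a secreted semaphorin. Fxyd6 was at 7.61, 11.1 and 9.58 CPM in the controls and 15.3, 18.8 and 16.9 CPM in the 75 Gy libraries of 6 weeks. For Bgn they were Fstl1 (0.102), a secreted glycoprotein of mesenchymal cells, and Loxl3 (0.108), a lysyl oxidase. The values describe these libraries, which share tissue and dose groups.

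Fmod was farther from every gene, with Nr5a2 (0.284) and Cd209c (0.36) nearest and Lum as the nearest member at 0.476. Ogn and Omd were each other's nearest member, at 0.26, which gave Omd rank 230 among all genes for Ogn and Ogn rank 9 for Omd. The nearest member of Aspn was Ogn, at 0.265 and rank 1313. For Prelp it was Ogn at 0.335, at rank 8413, and for Bgn it was Aspn at 0.367, at rank 11328. The genes most alike were Gm14322 and Ttpa for Ogn, Gsta3 and G0s2 for Omd, and Pigp and Fkbp7 for Aspn. Prelp lay closest to Thra and Nbl1, both at a difference of 0.087.

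Of 9 further genes of the SLRP family, 7 were tested. Kera and Epyc, keratocan and epiphycan, had at most 7 and 10 counts in a library and stayed below the count filter. Podnl1 rose at 75 Gy and 2 weeks by 1.11 (SE 0.274, adjusted p = 0.00916) in edgeR's test, from 0.893, 0.707 and 1.09 CPM in controls to 1.38, 2.28 and 2.16 CPM. Ecm2, the chromosome 13 neighbour, fell there from 29, 36.4 and 35.6 CPM to 19.6, 18.25 and 10.45 CPM, a log2 change of -1.07 (SE 0.182, adjusted p = 0.000929). Without library 3134 it was -0.83, short of the fold-change limit, and Podnl1 was at 0.97 and 0.98 without library 3127 or 3133. Nyx (nyctalopin) fell at 65 Gy and 6 weeks, with -1.03 (SE 0.259, adjusted p = 0.0165), but its adjusted p was 0.0672 to 0.127 and its value -1.05 to -0.83 without library 3135, 3138 or 3140. Optc, Chad, Tsku and Podn passed in none of the 4 comparisons. In all, 2 of 7 passed at 75 Gy and 2 weeks, where 7.74% of all genes did, and 1 at 65 Gy and 6 weeks, where 5.28% did. In the other 2 comparisons, 65 Gy at 2 weeks and 75 Gy at 6 weeks, 0 passed, also with DESeq2. All-gene shares there were 4.35% and 10.4%. In these last 2 comparisons, 2 (65 Gy, 2 weeks) and 4 (75 Gy, 6 weeks) had an unadjusted p under 0.05. Of all genes, 25.4% and 45.6% had one.

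The collagens that SLRPs bind numbered 13, all tested. At 2 weeks 0 of 13 passed at either dose, also with DESeq2, with 2 (65 Gy) and 8 (75 Gy) at an unadjusted p under 0.05. Among all genes, 4.35% (65 Gy) and 7.74% (75 Gy) were DEGs there, and 25.4% and 35% had such a p. At 6 weeks 2 of 13 passed at each dose, against 5.28% of all genes at 65 Gy and 10.4% at 75 Gy. Col5a2, a chain of type V collagen that lies inside type I fibrils, rose by 1.04 (SE 0.126, adjusted p = 0.000121) at 65 Gy and 1.27 (SE 0.116, adjusted p = 5.04e-06) at 75 Gy. Col11a1, of the related type XI collagen, rose by 1.62 and 2.21 from under 0.25 CPM in each control. At 65 Gy these calls were lost without 1 library, Col5a2 at 0.99 without 3135 and Col11a1 at 1.33 and 1.30 without 3137 or 3138. Col12a1, whose collagen sits on the fibril surface, was lower at 75 Gy with a log2 change of -0.90 (SE 0.108, adjusted p = 4.11e-05), short of the fold-change limit. The median of the 13 was 0.47 at 65 Gy and 0.41 at 75 Gy at 6 weeks. Between the controls, 11 of the 13 were lower at 6 than at 2 weeks, with a median of -0.475 and 1 DEG, lower. Their sum was 2657 to 4280 CPM in controls of 2 weeks and 2004 to 2416 CPM in those of 6 weeks. In 75 Gy lungs of 6 weeks it was 2549 to 3128 CPM.

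Of 28 genes for the synthesis of chondroitin, dermatan and keratan sulfate chains, 1 passed in each comparison except 75 Gy at 6 weeks, where 1 rose and 2 fell. Among all genes, 4.35% (65 Gy) and 7.74% (75 Gy) passed at 2 weeks, and 5.28% and 10.4% at 6 weeks. With the adjusted p alone, 10 of the 28 were lower and 4 higher at 75 Gy and 6 weeks, against 18% of all genes either way. B3gnt7, which extends keratan sulfate, rose in all 4, from 8.81, 6.83 and 6.74 CPM in controls to 19.5, 16.15 and 16.85 CPM at 75 Gy and 6 weeks, and its edgeR log2 fold changes lay between 1.23 and 1.57. Chst1, the sulfotransferase of keratan sulfate, fell at 75 Gy and 6 weeks with a log2 change of -1.23 (SE 0.154, adjusted p = 5.78e-05), and Chst3, of chondroitin sulfate, with -1.28 on the same scale. Chst15 was lower in all 4 comparisons past the adjusted p limit, with -0.93 at 75 Gy and 6 weeks.

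Of 16 receptors and growth factors that SLRPs are known to bind, 2 rose at each dose at 2 weeks, Tlr2 and Cd14. Higher DEGs made up 3.47% of all genes at 65 Gy and 5.67% at 75 Gy at that time. Tlr2 was at 56, 56.7 and 157 CPM at 75 Gy, the last being library 3134, and at 40.6, 28.2 and 27.7 CPM in controls. Without 3134 the log2 changes there went from 1.49 to 0.81 in Tlr2 and from 1.2 to 0.98 in Cd14, so that 0 of 16 passed both limits, although both kept an adjusted p of at most 0.05. At 65 Gy the call of Cd14 was lost without 3128 or 3129, at 0.90 to 0.94, and that of Tlr2 without any library but 3126, at 0.96 to 1.14. Cd14, the co-receptor of Tlr4 and Tlr2, was at 21.7, 18.6 and 21 CPM in the controls and 63.2, 79.5 and 98.6 CPM in 75 Gy lungs of 6 weeks, a log2 change of 1.97 (SE 0.216, adjusted p = 2.01e-05) with edgeR. It was the only one of the 16 to pass at 65 Gy and 6 weeks, where 5.28% of all genes passed. At 75 Gy and 6 weeks 4 of the 16 passed, 2 of them lower, against 10.4% of all genes. At 75 Gy and 6 weeks Kdr, the VEGF receptor of endothelium, fell with a log2 change of -1.40 (SE 0.174, adjusted p = 5.52e-05), Igf1r fell with a log2 change of -1.27 (SE 0.1265, adjusted p = 1.01e-05), and Ccn4 rose by 1.04, or by 0.98 to 1 without 3136, 3137 or 3142.

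The list of proteases that process or cleave SLRPs had 13 genes, among them Pcolce, an enhancer of such proteases. Of these, 5 passed at 65 Gy and 2 weeks, 3 higher and 2 lower, and 5 at 75 Gy and 2 weeks, 4 higher and 1 lower. At 6 weeks 5 passed at 65 Gy, all higher, and 7 at 75 Gy, 6 of them higher. Among all genes 4.35%, 7.74%, 5.28% and 10.4% were DEGs, in this order. With 1 library left out, 2 to 5 passed at 65 Gy and 4 to 6 at 75 Gy at 2 weeks, and 7 at 75 Gy and 6 weeks. The calls of Adamts1 and Tll1 at 65 Gy and 2 weeks, both lower, were lost in 3 and 4 of 6 such fits. Mmp12, the macrophage metalloelastase, was at 6.36, 4.69 and 3.82 CPM in controls and 279, 239 and 258 CPM at 75 Gy and 6 weeks, a log2 change of 5.70 (SE 0.374, adjusted p = 2.16e-07) with edgeR. Mmp13 rose by 2.39 there. Adamts4, an aggrecanase, rose by 3.14, from 0.843, 0.963 and 0.663 CPM to 7.02, 7.13 and 7.67 CPM. All 3 passed in all 4 comparisons, except that Adamts4 lost its call at 65 Gy and 2 weeks without library 3129, at 1.23 (adjusted p = 0.0626 with edgeR).

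Of 20 proteoglycans outside the family, Esm1 (endocan, of endothelium) fell in all 4 comparisons with a log2 change of -1.41 (SE 0.252, adjusted p = 0.000718) at 75 Gy and 6 weeks. Tgfbr3 (betaglycan) fell at 75 Gy at both times, with log2 changes of -1.10 and -1.11, the former being -0.90 without library 3134 and -0.99 without 3128. Vcan (versican) was higher by 0.98 (SE 0.15, adjusted p = 0.000452) at 75 Gy and 2 weeks, short of the fold-change limit. Prg4 (lubricin) rose at 65 Gy and 2 weeks and at 75 Gy and 6 weeks, and Acan (aggrecan) also passed in the latter. Prg4 at 65 Gy lost its call without any library but 3131, at 1.56 to 2.32, and the adjusted p of Acan was 0.0799 to 0.0844 without 3135, 3136 or 3137. The number that passed was 2 of 20 at each dose at 2 weeks, 1 at 65 Gy and 4 at 75 Gy at 6 weeks. Among all genes it was 4.35% (65 Gy) and 7.74% (75 Gy) at 2 weeks, and 5.28% and 10.4% at 6 weeks.

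Markers of cells that make SLRPs were read beside the members. For this and all marker lists below, 4.35% (65 Gy) and 7.74% (75 Gy) of all genes were DEGs at 2 weeks. At 6 weeks it was 5.28% and 10.4%. The 8 markers of alveolar fibroblasts had log2 fold changes below 0 in all 4 comparisons, with medians from -0.74 to -0.49, but 0 of 8 were DEGs. With the adjusted p alone, 1 and 5 (65 and 75 Gy) were lower at 2 weeks and 2 and 4 at 6 weeks with edgeR. Of all genes, 4.29%, 10.5%, 7.01% and 18% were lower by this limit, in the same order. With an unadjusted p under 0.05 there were 5 and 7 at 2 weeks and 4 and 5 at 6 weeks, against 25.4%, 35%, 29.4% and 45.6% of all genes. DESeq2 called 1 gene at 65 Gy and 2 weeks. Their summed level was 4436 to 4937 CPM in controls and 1610 to 3548 CPM at 75 Gy at 2 weeks, and 4673 to 5253 and 2918 to 3416 CPM at 6 weeks. Inmt and Limch1 had the highest levels among them, and Limch1 was lower at 75 Gy and 6 weeks with a log2 change of -0.90 (SE 0.175, adjusted p = 0.00128) with edgeR.

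Of the 7 markers of adventitial fibroblasts, 2 fell at each dose at 2 weeks, Pi16 and Igfbp6, and 1 rose at 75 Gy and 6 weeks, Mfap5. Without library 3134, Igfbp6 was at -0.97 in place of -1.30 at 75 Gy, short of the fold-change limit. At 65 Gy Igfbp6 lost its call without 3129 or 3131, at -1.09 and -1.05, and Pi16 without any library but 3129, at -1.09 to -0.84. Their sums were 529 to 618 CPM in the controls of 6 weeks and 651 to 678 CPM at 75 Gy, without overlap. Cd34 and Dpt had the highest levels, and Dpt had a log2 fold change of 0.05 at 75 Gy and 6 weeks. The 8 markers of myofibroblasts and smooth muscle, led by Postn and Acta2, had 1 call, Cnn1, lower at 75 Gy and 2 weeks. This call was lost without 3126, 3127, 3132 or 3134, at -1.11 to -0.87. At 2 weeks all 8 were below 0 at both doses, with medians of -0.337 (65 Gy) and -0.556 (75 Gy). With the adjusted p alone, 0 and 4 of them were lower, against 4.29% and 10.5% of all genes. At 6 weeks all 8 were below 0 at 65 Gy (median -0.159) and 4 of 8 at 75 Gy (0.013). Rgs5 was the only one of 6 pericyte markers to pass and was higher in all 4 comparisons, while Gucy1a1 and Pdgfrb had log2 fold changes below 0. The part of these cell types in the levels of the members was not tested.

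Markers of cardiac and skeletal muscle, fat, mesothelium and cartilage were read too. In the controls of 6 weeks the cardiac muscle sum was high in library 3137, with Myh6 at 343 CPM and Myl4 at 56.6 CPM. At 75 Gy and 6 weeks 2 of the 6 cardiac markers rose, Tnni3 and Sln, and all 6 had log2 fold changes above 0, with a median of 1.28. All 6 passed without 3137, and 0 without 3135, 3136 or 3143. At 75 Gy and 2 weeks all 6 were below 0, with a median of -1.10 and sums below all controls. There 0 passed with edgeR and 1 with DESeq2, and 3 had an unadjusted p under 0.05.

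Of the 6 adipocyte markers, 1 rose at 75 Gy and 6 weeks, Fabp4, by 1.88, which was lost without 3135 or 3136, at 1.62 and 1.58. Cfd was at 32.2, 30.3 and 33.45 against 5.08, 6.525 and 32.6 CPM there. At 75 Gy and 2 weeks 5 of 6 were below 0, with a median of -2.78, and their sums lay below all controls. With edgeR 1 of them fell, Cidec, while 5 had an unadjusted p under 0.05 and DESeq2 called 3 lower. Skeletal muscle markers, with Ckm and Tnnt3 leading, summed to under 15 CPM in every library. Ckm was lower and Acta1 higher at 75 Gy and 2 weeks, by -1.83 and 4.34 on the log2 scale, and neither passed without 3126, 3127 or 3134, nor Ckm without 3132, at -1.75 to -1.50 and 3.38 to 3.83.

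Mesothelial markers, led by Gpm6a and Upk1b, summed to 102 to 188 CPM in the controls of 6 weeks and 73.1 to 76.7 CPM at 65 Gy, where 3 of 6 fell, Upk3b, Wt1 and Lrrn4, and 0 passed without either of the 65 Gy libraries, 3138 or 3140. None of the 6 passed in the other 3 comparisons, also with DESeq2. At 2 weeks 2 (65 Gy) and 3 (75 Gy) had an unadjusted p under 0.05, and at 75 Gy and 6 weeks 1 had. Of all genes, 25.4%, 35% and 45.6% had one. Cartilage markers, which include Acan and Col2a1 of the lists above, summed to 5.85 to 7.07 CPM in controls and 9.17 to 11.1 CPM at 75 Gy at 6 weeks, and 2 of the 10 were at 0 in all controls of that time. Col11a2 and Hapln1 led them, and Hapln1 rose at 2 weeks by 1.36 and 1.51, the former not passing without 3131, at 1.09. Of 8 leukocyte markers, led by Ptprc and Csf1r, Cd68 rose in all 4 comparisons. At each dose at 2 weeks 2 of the 8 rose and 1 fell, and at 6 weeks 4 were above 0 and 4 below. The call of Itgam at 65 Gy and 2 weeks, at 1.08, was lost without any 1 library of its groups, at 1.01 to 1.12. At 75 Gy and 2 weeks Itgam was at 0.72 without library 3134, in place of 1.5. Of the 10 epithelial markers, led by Sftpc and Scgb1a1, Sftpd rose at both doses and Rtkn2 fell at 75 Gy at 6 weeks. The call of Sftpd at 65 Gy, at 1.03, was lost without any 1 library of its groups, at 1 to 1.08 with adjusted p-values up to 0.138 in edgeR's test. Their part in the results was not tested.

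Leaving out control library 3137, which had the high cardiac sum, Dcn had a log2 fold change of 0.99 at 75 Gy and 6 weeks, the highest of its leave-one-out fits. Over all such fits the values of Dcn were 0.68 to 0.99, those of Lum 1.06 to 1.21 and those of Fmod 1.77 to 2.08, and edgeR's adjusted p was at most 0.0144, 0.00306 and 0.0205. Without any single library of these groups, all 3 thus stayed higher and past the adjusted p limit.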

How the data were processed

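The data were read counts per gene of 17 mouse lung libraries. The authors prepared poly(A) RNA of the lesions with a stranded kit, sequenced it in pairs of 100 bases, trimmed the reads with Trimmomatic 0.38 (minimum length 36), aligned them to GRCm38.p6 with HISAT2 2.1.0 and estimated expression with StringTie 2.1.3b. They deposited raw counts as whole numbers, without normalization. The step from StringTie to counts and its use of strand are not given in the sources used here.

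For the values given here, edgeR 4.0.16 in R 4.3.3 fitted 1 coefficient per group to the counts of the 17 libraries. The function filterByExpr (minimum count 10, minimum total count 15) kept 22052 of 45777 genes, and TMM factors scaled the libraries. The quasi-likelihood F test was run on 9 comparisons, with Benjamini-Hochberg adjustment over all genes tested. SE and 95% intervals come from this fit. Nothing states how many animals a library holds, so p-values measure the spread between libraries. The method was tested on simulated data.

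Alternatives were RLE factors, DESeq2 1.42.0, all genes with at least 1 count, at least 10 counts in every library, only the groups compared, no fold-change limit, and each library left out in turn. The last was extended to the genes of the lists after the data were seen. Named were all members, all further SLRP genes, of each pathway list the 3 genes with the smallest p, of each marker list the 2 with the highest mean CPM, and the 2 genes most like each member (log2 CPM with a prior count of 2). Other genes named beside counts were chosen after their values were seen. Members and lists were chosen with earlier results of these data known. Exon lengths are those of GENCODE for GRCm38, and promoters those of RefSeq.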

Additional observations from a re-analysis of the deposited data

Results flagged for a closer look

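The effect of 75 Gy, as a log2 fold change against the controls of the same time, differed between 6 and 2 weeks for 2 members by the test of the difference in edgeR's fit. For Dcn the difference was 1.60 (SE 0.248, adjusted p = 0.0125), from -0.78 at 2 weeks to 0.83 at 6 weeks, and all 3 libraries lay below the controls at the first time and above them at the second. For Lum it was 1.47 (SE 0.261, adjusted p = 0.0272), from -0.33, where the groups overlapped, to 1.14, where they did not. At 75 Gy 14.8% of all genes lay below their controls without overlap at 2 weeks, and 29.4% lay above them at 6 weeks. The call of Lum was lost without any 1 of 6 libraries, with values from 1.39 to 1.54. For the same difference all 6 cardiac markers and 5 of 6 adipocyte markers had an unadjusted p under 0.05, with medians of 2.37 and 3.48. Values above 0 were found in 8 of 8 myofibroblast and smooth muscle markers and 6 of 7 of adventitial fibroblasts. They were found in 4 of 8 markers of alveolar fibroblasts and 1 of 6 of pericytes. The part of these tissues and cells was not tested.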

How the results depend on the processing

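No paired analysis was possible because no 2 libraries share a replicate number. Of the counts of members recomputed under the alternatives, 105 stayed within 1.5 times the reported count and 12 did not. Without the fold-change limit, 2 members (Dcn and Prelp) were called at 2 weeks at each dose. With only the groups compared, 1 member was called at 65 Gy and 2 weeks (Omd) and 1 at 65 Gy and 6 weeks (Fmod), and DESeq2 also called 1 in the latter (Fmod). With 1 library left out, 0 to 1 members were called at 75 Gy and 2 weeks, the 1 being Ogn without library 3132, and 1 to 2 for the difference between times at 75 Gy. Lum and Fmod at 75 Gy and 6 weeks kept direction and call under every alternative listed.

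Of the single log2 fold changes recomputed, 881 kept direction and side of the limits, 9 gained a call, 6 lost it, all of them Lum in the difference between times, and 40 changed sign, all with 1 library left out and none of them called. Signs were compared at 2 decimals, so that a value rounding to 0 did not count as a change. Where a sign changed by this rule, the lowest and highest values with 1 library left out were as follows. For 75 Gy against control at 2 weeks the range was -0.63 to 0.34 in Aspn, -0.23 to 0.97 in Fmod and -1.13 to 0.06 in Ogn. For 65 Gy against control at 2 weeks the range was -0.30 to 0.04 in Aspn and -0.31 to 0.89 in Fmod. For 75 Gy against control at 6 weeks the range was -0.06 to 0.06 in Ogn. For 65 Gy against control at 6 weeks the range was -0.43 to 0.44 in Aspn and -0.03 to 0.28 in Dcn. For 75 Gy against 65 Gy at 2 weeks the range was -0.45 to 0.51 in Aspn, -0.22 to 0.10 in Dcn, -0.18 to 0.40 in Fmod, -0.02 to 0.36 in Lum, -0.35 to 0.83 in Ogn and -0.11 to 1.01 in Omd. For 75 Gy against 65 Gy at 6 weeks the range was -0.07 to 0.80 in Aspn, -0.25 to 0.47 in Omd and -0.13 to 0.03 in Prelp. For the controls of 6 against 2 weeks the range was -0.38 to 0.01 in Bgn, -0.61 to 0.60 in Fmod and -0.29 to 0.03 in Ogn. Omd, at 0.0048 with all libraries, was not counted there, though its range was -0.07 to 0.09. For the difference between times at 75 Gy the range was -0.09 to 0.31 in Bgn, -0.05 to 1.15 in Ogn and -0.27 to 0.86 in Omd. For the difference between times at 65 Gy the range was -0.26 to 0.61 in Aspn and -0.17 to 0.24 in Bgn. Without 1 of the 65 Gy libraries of 6 weeks, the other is assumed to vary like the other groups. The cause was not tested. With 2 or 3 libraries a group, an Omd level of a few CPM and the spread of Fmod in the controls of 2 weeks leave wide intervals.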
